A study of Mus musculus with 4 samples.

Results

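The PRDM6 peaks described here lie in intergenic DNA at more than 20 kb and up to 100 kb from the start of transcription (TSS) of their assigned gene. They were chosen by the deposited annotation alone, as the peaks classed Distal Intergenic with an absolute distance to the TSS in that range, and are called mid-range peaks below. There were 2206 of them among 13977 PRDM6 peaks, or 15.8% (95% Wilson interval 15.2 to 16.4). They made up 42.4% (41.1 to 43.8) of the 5200 intergenic peaks. Of the other intergenic peaks, 1136 lay within 20 kb, 1215 at 100 to 300 kb and 643 beyond 300 kb.

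The study mapped PRDM6 by ChIP-seq in cultured outflow tract smooth muscle cells (SMCs) from mouse embryos. The cells were infected with a lentivirus that overexpresses FLAG-tagged PRDM6. The study's methods give embryos with floxed Prdm6 alleles as the source of outflow tract SMCs. There were 2 PRDM6 ChIP samples, precipitated with an anti-FLAG antibody, and 2 Input samples of chromatin from cells that carried the same FLAG-tagged protein. Chromatin was fixed with formaldehyde, cut with micrococcal nuclease and then sonicated. The tagged protein was overexpressed and cells without the tag were not analysed here, so the peaks describe sites of the exogenous protein. The study describes the pair of immunoprecipitations both as coming from a single sample and as independent replicates, so agreement between them may be technical. The deposited list held no Input values, and the peaks are those matched between both ChIP samples, so nothing below compares conditions.

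PRDM6 is a PR/SET domain protein enriched in SMCs and linked to closure of the ductus arteriosus. Intergenic DNA at such distances from a TSS can hold enhancers, which factors such as AP-1 (dimers of FOS and JUN proteins) and TEAD (the DNA-binding partner of the Hippo effectors YAP and TAZ) often occupy in adherent cells. RBPJ is the DNA-binding factor of Notch signalling, which acts in SMC differentiation of the great vessels.

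The windows below reach 100 bp to each side of the matched summit and were read from the GRCm38 (mm10) reference. They show what the strongest mid-range peaks hold and where the motifs counted later sit in them. Capitals mark the AP-1 motif TGACTCA, the TEAD motif (AGGAATGC, AGGAATGT, GGGAATGC or GGGAATGT) and the RBPJ core TGGGAA, on either strand as written. The first 2 are the strongest mid-range peaks with neither an AP-1 nor a TEAD motif, and the next 3 are from the 12 strongest and hold an AP-1 motif.
Slc44a3, chr3:121585082-121585282, plus strand: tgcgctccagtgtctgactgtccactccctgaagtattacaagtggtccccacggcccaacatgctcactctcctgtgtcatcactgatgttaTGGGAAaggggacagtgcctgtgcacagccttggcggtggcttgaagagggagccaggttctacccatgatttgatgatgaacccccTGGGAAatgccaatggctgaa
Asb7, chr7:66600477-66600677, plus strand: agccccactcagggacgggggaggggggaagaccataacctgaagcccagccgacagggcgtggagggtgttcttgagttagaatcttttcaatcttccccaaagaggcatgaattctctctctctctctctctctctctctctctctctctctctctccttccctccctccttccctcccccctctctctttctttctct
Eef1a1, chr9:78527339-78527539, plus strand: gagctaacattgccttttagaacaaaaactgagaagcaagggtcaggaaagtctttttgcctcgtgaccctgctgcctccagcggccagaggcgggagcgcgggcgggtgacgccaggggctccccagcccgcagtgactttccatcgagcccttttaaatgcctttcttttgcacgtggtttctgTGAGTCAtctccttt
Prex2, chr1:10898874-10899074, plus strand: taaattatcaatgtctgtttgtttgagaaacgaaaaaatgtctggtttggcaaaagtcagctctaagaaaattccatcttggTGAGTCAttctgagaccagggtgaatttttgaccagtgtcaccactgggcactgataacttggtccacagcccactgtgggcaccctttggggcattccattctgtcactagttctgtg
Tut7, chr13:59856752-59856952, plus strand: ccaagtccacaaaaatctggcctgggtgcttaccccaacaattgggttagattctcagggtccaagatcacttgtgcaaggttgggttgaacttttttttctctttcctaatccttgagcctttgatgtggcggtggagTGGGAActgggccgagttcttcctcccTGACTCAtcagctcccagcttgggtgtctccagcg

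Gorab was the strongest of the 14 mid-range peaks with both an AP-1 and a TEAD motif. The other windows belong to the strongest mid-range peak of list genes described below and were chosen after their motifs had been seen.
Gorab, chr1:163380002-163380202, plus strand: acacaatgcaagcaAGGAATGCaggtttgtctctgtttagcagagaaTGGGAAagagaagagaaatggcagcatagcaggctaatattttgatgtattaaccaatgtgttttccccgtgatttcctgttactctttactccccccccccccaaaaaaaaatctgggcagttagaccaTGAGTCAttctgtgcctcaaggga
Edn1, chr13:42328734-42328934, plus strand: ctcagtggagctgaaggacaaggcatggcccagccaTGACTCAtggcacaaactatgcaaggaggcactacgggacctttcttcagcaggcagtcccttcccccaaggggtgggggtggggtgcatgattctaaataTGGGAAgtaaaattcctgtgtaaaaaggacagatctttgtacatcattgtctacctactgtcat
Vgll3, chr16:65766061-65766261, plus strand: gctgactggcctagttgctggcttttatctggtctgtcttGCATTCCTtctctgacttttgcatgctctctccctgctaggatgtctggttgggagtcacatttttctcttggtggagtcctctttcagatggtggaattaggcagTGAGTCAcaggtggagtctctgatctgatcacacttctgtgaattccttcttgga
Fhl2, chr1:43218192-43218392, plus strand: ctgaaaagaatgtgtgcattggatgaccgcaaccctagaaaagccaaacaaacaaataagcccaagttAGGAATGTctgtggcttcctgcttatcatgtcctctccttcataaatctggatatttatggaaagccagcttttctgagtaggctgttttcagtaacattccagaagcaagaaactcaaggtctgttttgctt
Meis2, chr2:115780635-115780835, plus strand: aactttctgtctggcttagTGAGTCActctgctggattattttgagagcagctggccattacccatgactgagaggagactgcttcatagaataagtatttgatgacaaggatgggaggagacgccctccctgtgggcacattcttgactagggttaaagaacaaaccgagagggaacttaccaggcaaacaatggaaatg

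Strength is given here as the matched MACS2 −log10 p, which is the smaller of the values in both replicates. The median of the mid-range peaks was 5.68 (95% order-statistic interval 5.56 to 5.84, n = 2206), with a range of 3.03 to 28.97. The median was 5.69 for the intergenic peaks within 20 kb, 5.69 for those at 100 to 300 kb and 5.42 for promoter peaks. The mid-range peaks were thus close in strength to their intergenic neighbours on both sides of the distance limits. Intervals over peaks cover counting error only, since peaks are not replicates of a condition.

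Agreement between replicates was scored by the irreproducible discovery rate (IDR), the estimated share of peaks at or above a given rank that are not shared signal. A global IDR of at most 0.05, which is a score of 540 or more, was reached by 85 mid-range peaks, or 3.85% (3.13 to 4.74), beside 3.33% of all peaks. A global IDR of at most 0.01 was reached by 27, or 1.22% (0.843 to 1.77), beside 0.994% of all peaks. Both shares are near those of the whole list. The share at 0.05 differed from that within 20 kb by -0.900 percentage points (Newcombe interval -2.48 to 0.506) and from that at 100 to 300 kb by 0.149 points (-1.27 to 1.43). It was 1.53 points above that of promoter peaks (0.589 to 2.54). At the other end, 844 mid-range peaks (38.3%) had the lowest score of 48, beside 41.4% of all peaks, and 1251 (56.7%) had a global IDR above 0.5, beside 59.1%. A large share of weakly shared entries is thus a trait of the whole list.

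The strongest mid-range peaks belonged to genes of varied function. The peak of Slc44a3, a choline transporter-like gene, led with a −log10 p of 31.1 in the first-listed replicate and 29.0 in the second-listed one, and lay 51994 bp upstream of the TSS. Asb7, which encodes a SOCS box protein, followed with 25.4 and 25.5 at 54215 bp downstream. Dnajb6, a co-chaperone gene, had 23.2 and 22.1 at 98846 bp downstream. In these 3 peaks the replicate summits lay 71, 9 and 11 bp apart. The window of the Asb7 peak was 68.2% repeat-masked and holds the run of alternating pyrimidines seen in its sequence, and the part of the repeat in its height was not tested.

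Other strong peaks were higher in the second-listed replicate. Eef1a1, which encodes a translation elongation factor, had a −log10 p of 22.1 and 25.2 at 37794 bp upstream. Prex2, a gene of a Rac exchange factor, had 21.002 and 26.6 at 93904 bp upstream. Tut7, which encodes a terminal uridylyltransferase, had 18.9 and 26.0 at 33164 bp upstream. These 3 hold an AP-1 motif, centred 89, -15 and 69 bp from the summit along the chromosome. Bach1, whose protein is a bZIP repressor, had 18.9 and 25.5 at 62506 bp upstream, with no AP-1 motif in its window. Smurf2, a ubiquitin ligase gene of TGF-β and BMP signalling, had 18.2 and 20.99 at 33129 bp upstream.

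Some others of the 12 strongest were higher in the first-listed replicate. 4930545H06Rik had 23.2 and 20.99, Cd47, a cell surface inhibitor of phagocytosis, had 19.9 and 18.8, and Gm8633 had 18.9 and 18.8. All of the 12 had the highest score of 1000. Of the 12 windows, 4 held AP-1, 4 held the RBPJ core and 0 held TEAD, motifs found in 14.3%, 19.9% and 7.45% of all peaks. Counts in so few peaks are given as a description. The Slc44a3 window holds the RBPJ core at 2 places and the Dnajb6 window at 3.

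The next in strength among those 27 peaks belonged to 8 further genes. Pappa, a protease of IGF-binding proteins, had 17.9 and 17.8 at 40256 bp upstream. Rasa1, a Ras GTPase-activating protein gene, had 15.8 and 16.8 at 69676 bp upstream. Med13l, a gene of the Mediator kinase module, had 16.8 and 17.8 at 82335 bp upstream. Irf2bp2, a co-repressor gene, had 18.9 and 16.7 at 39933 bp upstream. Bach2, a relative of Bach1, had 15.8 and 17.8, and Ccdc80, which encodes a matrix protein, had 15.8 and 18.8. In Npl, a sialic acid lyase gene, and Gm6498 the replicates were less alike, with 21.2 and 14.9 in Npl and 14.9 and 20.99 in Gm6498. The Npl window holds an AP-1 motif centred -4 bp from the summit. The 27 peaks belonged to 26 genes, and 18 lay upstream of the TSS. Of the 27, 8 (29.6%) held AP-1, 1 held TEAD and 11 held the RBPJ core. Of all peaks, 14.3% held AP-1, 7.45% TEAD and 19.9% the RBPJ core.

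**Figure D1:**
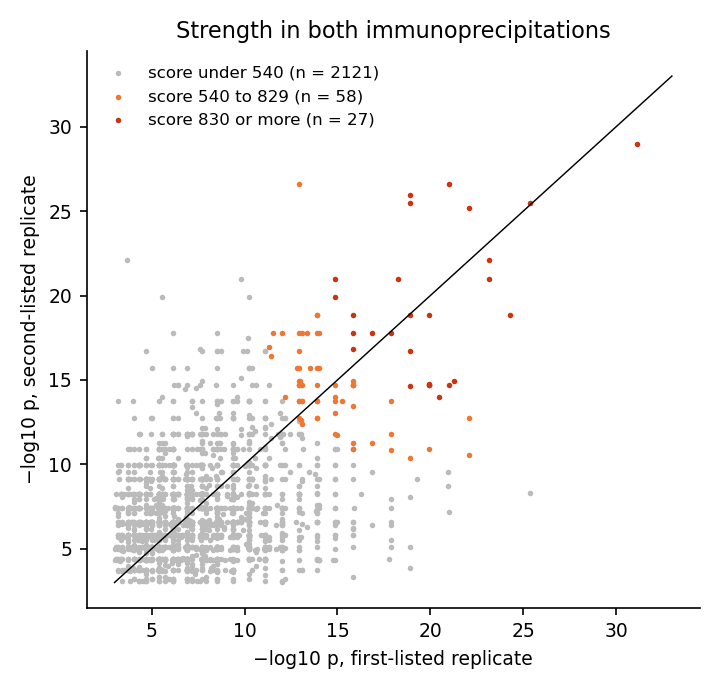
The −log10 p of each mid-range peak in the first-listed replicate (horizontal axis) is plotted against that in the second-listed replicate (vertical axis), coloured by IDR score, with the line of equal values. The 85 peaks with a score of 540 or more sit at the upper right, and the grey points show little order along the line.

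The replicates ranked the mid-range peaks only loosely alike, as they did the whole list. The Spearman correlation of their −log10 p was 0.257 (n = 2206 peaks from the same pair of libraries) and 0.263 over all 13977 peaks, both given as a description. The correlation was 0.338 for the intergenic peaks within 20 kb, 0.271 at 100 to 300 kb and 0.251 beyond 300 kb. The −log10 p was higher in the first-listed replicate for 1205 mid-range peaks and in the second-listed one for 1001. The replicate summits lay a median of 121 bp apart, up to 50 bp in 655 peaks (29.7%, beside 29.3% of all peaks) and over 400 bp in 302 (13.7%, beside 12.4%). The place of the summit was thus close between replicates in some peaks and not in others. The median width was 625 bp (interquartile range 404 to 946, range 139 to 3115), and together the peaks covered 1596408 bp.

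The read depth behind a peak was small. Where the p-value fell on the series of values that a single Poisson background gives, the median height was 15 fragments in the first-listed replicate (1285 peaks, 58.3%) and 14 in the second-listed one (1371 peaks, 62.1%). The background means were 2.61 and 2.39 fragments. The Slc44a3 peak stood at 38 and 35 fragments, the highest of the mid-range peaks on that series. A difference of a few fragments between typical peaks is therefore not resolved. On chromosome 15, 23.3% of the 129 mid-range peaks were on the series in the first-listed replicate, against 45.8% to 77.1% on the other autosomes.

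**Figure D2:**
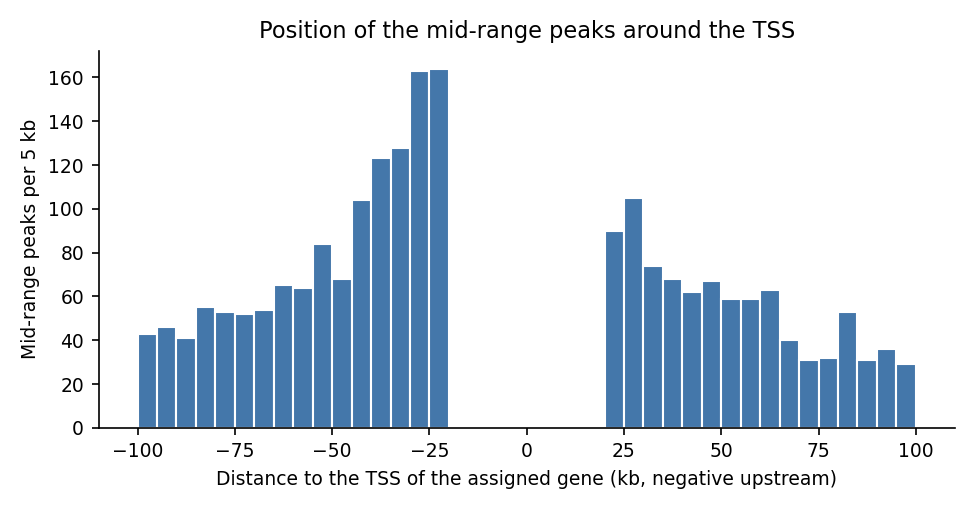
Number of mid-range peaks (vertical axis) in each 5 kb of distance to the TSS of the assigned gene (horizontal axis, kb, negative values upstream). The empty centre is the 20 kb limit of the selection, and the upstream side holds 1307 of the 2206 peaks.

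Within their range the counts of mid-range peaks were higher near the TSS and on its upstream side. The median distance was 45743 bp. There were 915 peaks at 20 to 40 kb, 567 at 40 to 60 kb, 390 at 60 to 80 kb and 334 at 80 to 100 kb. These counts were not set against the intergenic DNA present at each distance, so a preference for nearer sites was not tested. The share upstream was 59.2% (57.2 to 61.3), which was 12.7 points lower than within 20 kb (71.9%, interval of the difference -15.9 to -9.30) and 7.23 points higher than at 100 to 300 kb (52.0%, 3.75 to 10.7). The median assigned transcript was 35332 bp long for the 1307 upstream peaks and 7416 bp for the 899 downstream ones. A downstream intergenic peak must lie past the end of its transcript, and the part of transcript length in the upstream share was not tested.

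The peaks next to the distance limits are given as a description. Just inside the lower limit was a peak of Xdh at 20025 bp upstream with a −log10 p of 11.8, and just outside it one of Vps45 at 19996 bp upstream with 13.9. Just inside the upper limit was a peak of Adamts1 at 99886 bp downstream with 6.92, and just outside it one of Itga8 at 100031 bp downstream with 4.71. AP-1, the motif described below, was within 100 bp of the summit in 15.2% of the 112 mid-range peaks at 20 to 22 kb (9.70 to 22.97) and in 22.3% of the 121 intergenic peaks at 18 to 20 kb (15.8 to 30.5). It was in 13.9% of the 72 at 95 to 100 kb (7.72 to 23.7) and in 19.7% of the 71 up to 5 kb beyond the upper limit (12.1 to 30.4). The share was lower just inside both limits than just outside, with overlapping intervals.

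The label of these peaks depends on which genes were counted. The deposited distances run to the TSS of the assigned genes, while in the GENCODE M21 basic annotation of the same build 739 mid-range peaks (33.5%) had some TSS within 20 kb. For those 739 the nearest TSS belonged to a pseudogene in 345, to a long non-coding RNA in 224, to a small RNA in 97, to an unconfirmed transcript in 66, to a protein-coding gene in 6 and to another type in the rest. A protein-coding TSS lay within 20 kb of only 13 mid-range peaks and beyond 100 kb of 428 (19.4%). Only 5 overlapped an annotated transcript. Where the assigned gene was coding, it was the nearest coding gene for 1537 of 1691 peaks (90.9%). The assigned transcript had the same coordinates in this annotation for 2195 peaks. The low counts of coding TSSs and of overlaps thus largely follow from the selection and are no separate check of the name distal intergenic. Nearness does not show that a gene is regulated by the peak.

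The mid-range peaks were assigned to 1337 genes, of which 1042 were protein-coding and 245 long non-coding. Most genes had a single mid-range peak (827), 311 had 2 and 199 had 3 or more. Of the 1337 genes, 383 (28.6%) also had a promoter peak, and 498 (37.2%) had no PRDM6 peak of any other kind. Like shares over all 5246 genes with a PRDM6 peak are not given here, so both are a description. Cdc42ep3, an effector of the GTPase CDC42, had the most with 9, at 56530 to 99028 bp and on both sides of the TSS. Dnajb6, Irf2bp2, Atp6v1g3, Mbnl1, Trabd2b and Mir680-3 had 8 each, and Gm12610 had 7. Mbnl1 encodes a splicing regulator, Atp6v1g3 a subunit of the vacuolar proton pump and Trabd2b a protease of Wnt ligands. The 8 peaks of Irf2bp2 included 3 with a global IDR of at most 0.05, those of Mir680-3, Trabd2b and Gm12610 none, and Cdc42ep3, Dnajb6, Atp6v1g3 and Mbnl1 had 1 each.

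Many mid-range peaks lay side by side. Joined over gaps of up to 20 kb, they formed 1570 runs, of which 434 held at least 2 peaks and together 1070 peaks (48.5%). A peak of any class lay within 20 kb of 54.0% of the mid-range peaks, beside 59.6% of the intergenic peaks within 20 kb of a TSS and 52.8% of those at 100 to 300 kb, so near neighbours were common at other distances too. The longest runs held 8. The run of Atp6v1g3 (chr1:138328531-138358504) had 8 peaks with a best −log10 p of 13.9 and a median of 6.04. That of Trabd2b (chr4:114332909-114357630) had 8 peaks, all upstream, with a best value of 11.1 and a median of 4.90. That of Dnajb6 (chr5:29841960-29865355) had 7 with a best value of 22.1 and a median of 9.10. A run of 7 also spanned chr5:104374072-104408723, assigned to Mepe and Spp1, genes of secreted phosphoproteins, with a best value of 13.5. The run of Trabd2b held 0 peaks at a global IDR of at most 0.05, and the others 1 each. Asb7 had 6 peaks within 8426 bp, among them the one with the repeat run. Neighbouring mid-range peaks were under 200 bp apart in 126 of 2186 gaps, and peaks of a run are not independent.

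**Figure D3:**
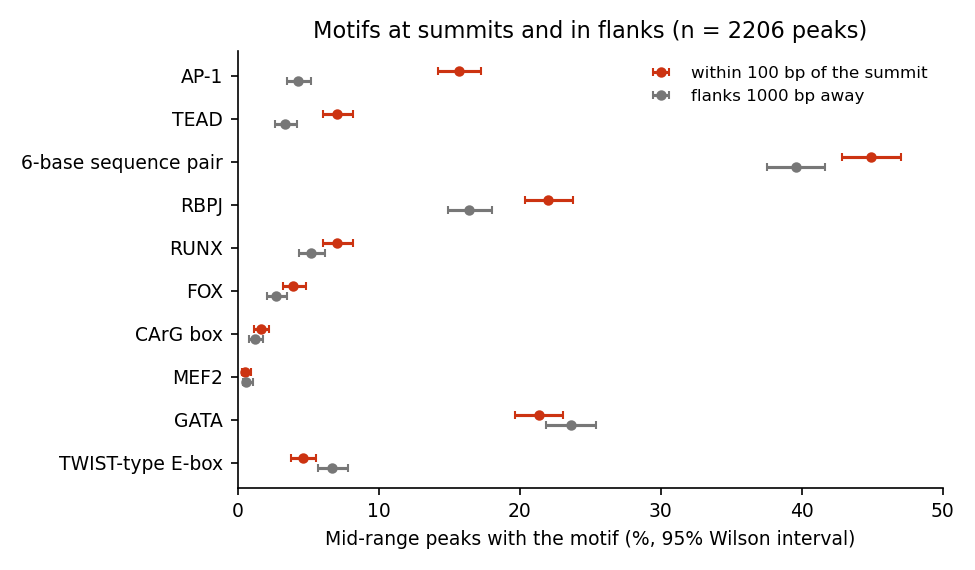
Share of the 2206 mid-range peaks (horizontal axis, %) with each motif within 100 bp of the summit (red) and in flanks 1000 bp away (grey), with 95% Wilson intervals. The 6-base sequence pair is TTTCAT or TTTCCT. The AP-1 share at summits is 15.7% against 4.26% in flanks, the widest ratio of those drawn.

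The AP-1 motif TGACTCA was found within 100 bp of the summit in 346 mid-range peaks, or 15.7% (14.2 to 17.3), beside 14.3% of all peaks. In flanks of equal length 1000 bp from the same summits, 94 (4.26%) held it. The ratio of summit to flank was 3.68 (2.95 to 4.59), near the 3.60 (3.29 to 3.95) of all peaks. The summit share differed by -2.19 points from the intergenic peaks within 20 kb (-4.94 to 0.456) and by -0.447 points from those at 100 to 300 kb (-3.07 to 2.07). It was 7.35 points above promoter peaks (5.56 to 9.19; 8.33%). The intervals of the differences between intergenic distances include 0, while that against promoters does not.

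The TEAD motif was found in 156 mid-range peaks, or 7.07% (6.07 to 8.22), beside 7.45% of all peaks, and in 74 (3.35%) of the flanks, a ratio of 2.11 (1.60 to 2.77) beside 2.30 (2.07 to 2.57) over all peaks. It was found in 7.23% (5.67 to 9.18) of the peaks with the lowest score and in 3.53% (1.21 to 9.87) of those with a score of 540 or more, where 3 of 85 held it and the ratio had an interval that includes 1 (0.312 to 28.8). Both AP-1 and TEAD were found in 14 peaks (0.635%, beside 1.03% of all peaks), and either in 488 (22.1%, beside 20.7%). TEAD was present in 4.05% of the mid-range peaks with AP-1 and in 7.63% of those without, beside 7.21% and 7.49% over all peaks. At least 2 AP-1 sites were in the window of 37 peaks (1.68%, beside 1.31%).

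The RBPJ core TGGGAA was found at 486 mid-range summits, or 22.03% (20.4 to 23.8), beside 19.9% of all peaks, and in 362 flanks (16.4%), a ratio of 1.34 (1.19 to 1.52) beside 1.16 (1.10 to 1.22) over all peaks. Its summit share was 2.57 points above that of all other peaks (0.738 to 4.48). Against single neighbours the difference was 2.40 points for peaks within 20 kb (-0.538 to 5.23) and 1.78 points at 100 to 300 kb (-1.11 to 4.58), both with intervals that include 0. It was 4.15 points beyond 300 kb (0.576 to 7.44) and 3.75 points for promoter peaks (1.55 to 5.98), where the intervals exclude 0. By score, the RBPJ core was in 24.7% (16.8 to 34.8) of the mid-range peaks with 540 or more. It was in 24.05% (21.3 to 27.0) of those with the lowest score and in 20.5% of those between. The motifs examined numbered 14, and the intervals are not adjusted for that. The core is short and overlaps the TEAD forms that begin with GGGAATG when T precedes them.

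The 6-base pair TTTCAT or TTTCCT was found at 991 summits, or 44.9% (42.9 to 47.0), beside 43.1% of all peaks, and in 873 flanks (39.6%), a ratio of 1.14 (1.06 to 1.21) beside 1.09 (1.06 to 1.12) over all peaks. RUNX (TGTGGTT) stood at 7.07% of summits, beside 6.71% of all peaks, against 5.21% in flanks (ratio 1.36, 1.07 to 1.71). FOX (TGTTTAC) stood at 3.94%, beside 3.54% of all peaks, against 2.72% in flanks (ratio 1.45, 1.04 to 2.01), and its ratio over all peaks was 1.10 (0.970 to 1.25). The CArG box, the site of SRF in contractile gene promoters, was found at 36 summits (1.63%, beside 1.41% of all peaks) and in 27 flanks, a ratio of 1.33 whose interval includes 1 (0.810 to 2.196). The motif of GATA factors, read as AGATAA or as TGATAA, was found at 471 summits (21.4%, beside 20.1% of all peaks), with a ratio of 0.904 (0.812 to 1.01). The GATA share differed by -4.00 points from that at 100 to 300 kb (interval of the difference -7.02 to -1.05), while in flanks the difference was -0.662 points (-3.69 to 2.29). The TWIST-type E-box CATATG was less frequent at summits, with 102 (4.62%, beside 3.79% of all peaks) against 148 flanks, a ratio of 0.689 (0.541 to 0.878). Its ratio over all peaks was 0.632 (0.569 to 0.702), so it was scarce at summits throughout the list. MEF2, CRE (TGACGTCA), SMAD (GTCTAGAC), ETS (CCGGAAGT) and NF-I were each found at no more than 12 summits. MEF2 was at 0.544% of the mid-range summits and of all summits alike. CRE stood at 0.317%, beside 0.286% of all peaks, and SMAD at 0.136%, beside 0.143%. ETS stood at 0.136%, beside 0.293%, and NF-I at 0.0907%, beside 0.0644%. All motifs were read on both strands, and a missing match says only that these letters were not in the window.

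**Figure D4:**
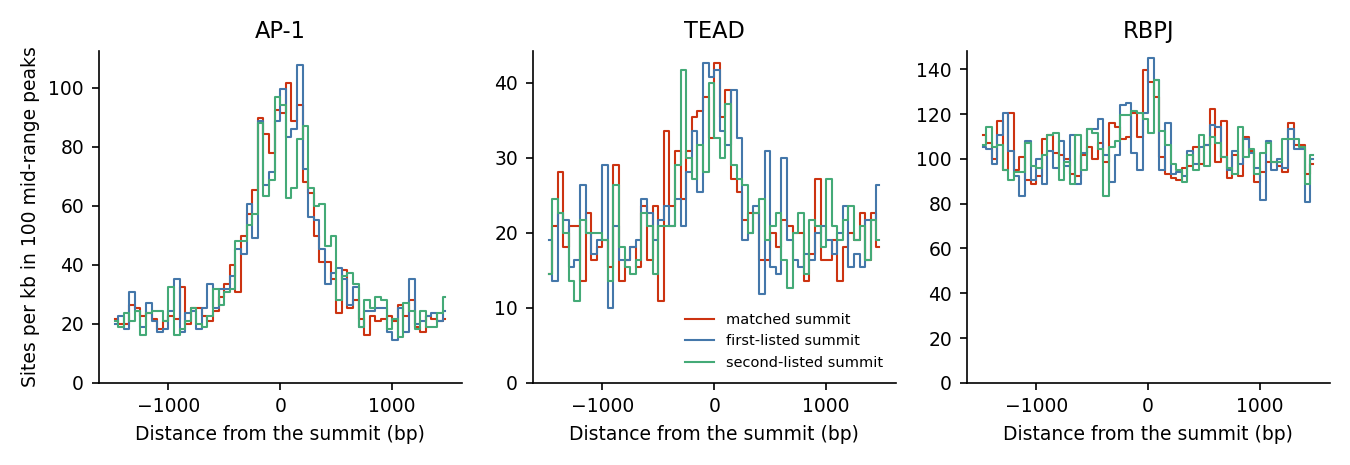
Motif sites per kb in 100 mid-range peaks (vertical axis) in 50 bp bins of distance from the summit (horizontal axis, bp), around the matched summit and the summit of each replicate. AP-1 rises to 4.12 times its outer density, TEAD to 1.96 times and the RBPJ core to 1.26 times within 100 bp of the matched summit.

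The AP-1 density rose in a broad hill around the summits rather than at a point. Within 100 bp of the matched summit it was 4.12 times the density at the outer edges, and around the summits of the first- and second-listed replicates it was 3.88 and 3.66 times. The TEAD density was 1.96 times and the RBPJ density 1.26 times the outer one. The middle of the peak held AP-1 within 100 bp more often than the summit, in 396 peaks (17.95%, 16.4 to 19.6). Where the replicate summits lay over 200 bp apart (785 peaks), AP-1 was in 17.1% of windows at the matched summit, 14.1% at the first-listed and 12.99% at the second-listed summit, and 18.9% at the middle of the peak.

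**Figure D5:**
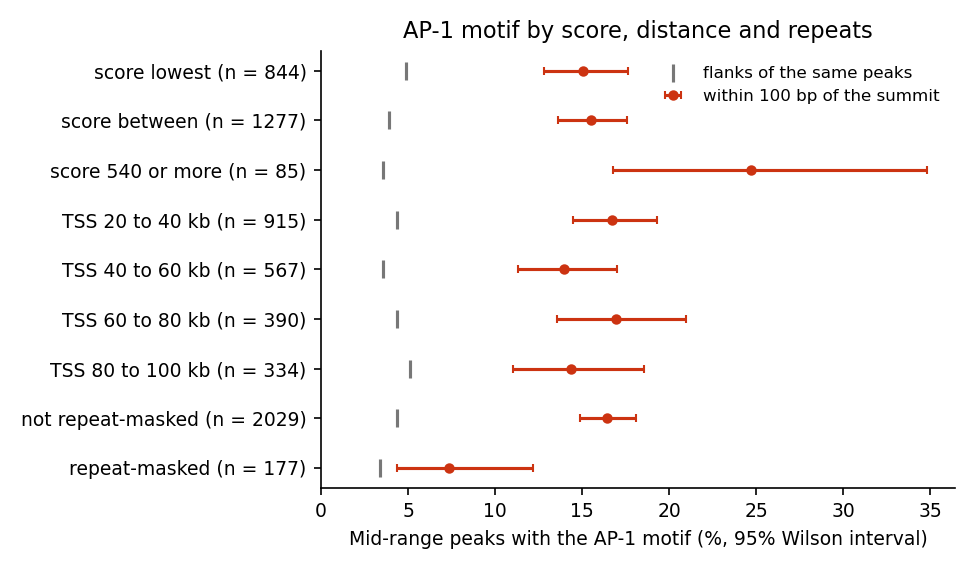
Share of mid-range peaks with an AP-1 motif within 100 bp of the summit (horizontal axis, %, points with 95% Wilson intervals) and in their flanks (grey bars), split by IDR score, distance to the TSS and repeat masking. The share is 24.7% for a score of 540 or more and 7.34% for repeat-masked windows.

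The AP-1 share varied little with distance from the TSS. It was 16.7% at 20 to 40 kb, 13.9% at 40 to 60 kb, 16.9% at 60 to 80 kb and 14.4% at 80 to 100 kb, with overlapping intervals. It was 15.05% (12.8 to 17.6) in peaks of the lowest score and 24.7% (16.8 to 34.8) in the 85 with a score of 540 or more, where 21 held it. In 4 strength classes of near equal size, from weak to strong, it was 14.1%, 15.1%, 15.6% and 17.9%. Weak peaks thus held AP-1 above their flanks (4.86% at the lowest score) as strong ones did.

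Summits of the mid-range peaks were less often repeat-masked than their flanks. The window was at least 50% repeat-masked in 177 peaks (8.02%, beside 7.81% of all peaks) and the flanks in 446 (20.2%, beside 16.2%). AP-1 was in 13 of those 177 windows (7.34%) and in 16.4% of the others. The part of read mapping in repeats was not tested. The median GC content was 43.3% at summits and 42.6% in flanks, and the observed over expected CpG ratio was 0.176, against 0.391 for promoter peaks. The mid-range summits were thus poorer in CpG than promoter summits. So were the other classes, with 0.179 for intergenic peaks within 20 kb, 0.139 at 100 to 300 kb, 0.132 beyond 300 kb and 0.176 for intron peaks. Density was 0.530 peaks per Mb on chromosome 4 and 1.34 on chromosome 1, and 0.111 on chromosome X, which held 19. The whole list had 590, 1412 and 93 peaks on chromosomes 4, 1 and X. Mid-range peaks were 14.1%, 18.6% and 20.4% of these, beside 15.8% of all peaks.

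Genes of 11 lists on SMC biology, signalling and other cell types were looked up among the assigned genes. Of their 139 genes, 22 (15.8%) had a mid-range peak, with 51 peaks in all and none with a global IDR of at most 0.05. Of all 21900 protein-coding genes of the RefSeq table, 4.76% (4.48 to 5.05) had one. A PRDM6 peak of any class was assigned to 76 of the 139 list genes (54.7%) and to 20.1% of the coding genes, so the list genes stood higher for peaks as a whole and not for mid-range peaks alone. The lists were chosen with earlier results in view and differ from other genes in expression and surroundings, which were not matched, so the shares are a description.

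Matrix genes of the vessel wall had the most, 7 of 16 genes (43.8%, 23.1 to 66.8) with 22 peaks, while 14 of the 16 had a PRDM6 peak of some class. Col5a2, a fibrillar collagen gene, had 6, the best with 7.42 and 10.9 in the first- and second-listed replicates at 77074 bp upstream. Col1a2 had 5, the best with 13.1 and 7.14 at 46066 bp upstream. Those of Col1a1 (1 peak, 5.42 and 7.92) and Col3a1 (2, best 8.75 and 5.84) were close to the median strength. Postn, a matricellular gene, had 3 (best 10.4 and 7.42), Fbn2, a fibrillin gene, 3 (6.92 and 8.25) and Thbs2, a thrombospondin gene, 2 (12.03 and 5.95). Col3a1 and Col5a2 are neighbours on chromosome 1, so their peaks share a region. The values in both replicates differ by several units in Col1a2 and Thbs2, and none of these peaks is among the firmly shared ones.

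Contractile and SRF-related genes had a mid-range peak in shares near that of all list genes, 14.3% in both lists (4.01 to 39.9 and 2.57 to 51.3). Among 14 SMC contractile genes, Tpm1 (tropomyosin) had 2 peaks, the best with 11.1 and 11.8 at 23799 bp downstream, and Vcl (vinculin) had 4, the best with 7.95 and 8.25. Of 7 SRF and myocardin factor genes, 1 had any, Fhl2, which encodes a LIM-domain co-regulator, and its best, with 12.95 and 12.6 at 20632 bp upstream, was the strongest of all list genes. Its score of 530 lies just under the 540 of a global IDR of 0.05, and its window holds a TEAD motif centred -28 bp from the summit.

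Of 12 ductus regulators, a list of which the study chose some on its own samples, 3 had a single peak each. They were Edn1 (endothelin, a vasoconstrictor; 8.52 and 9.10, with an AP-1 motif centred -61 bp from the summit), Jag1 (a Notch ligand; 5.42 and 8.25) and Twist1 (11.1 and 8.25). Of 30 outflow tract and neural crest transcription factors, 5 had one, Twist1 again, Mef2c, Prrx1, Meis2 and Hey2. Meis2 had the strongest of these, 9.37 and 9.54, with an AP-1 motif centred -78 bp from the summit. Prrx1 and Hey2 had the lowest score of 48.

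Of 15 Hippo pathway genes, Vgll3, a TEAD cofactor, and Ccn1, a YAP target, had 3 peaks each. The best peak of Vgll3 (10.4 and 9.10, 48856 bp upstream) is one of the 14 with both AP-1 and TEAD motifs, 49 and -56 bp from its summit. Of 20 TGF-β and BMP genes, the inhibitors Smad7 (8.75 and 8.72) and Smad6 (6.15 and 5.84) and the ligand Bmp2 (best 5.00 and 6.39) had one or more. None of the 11 AP-1 family genes had a mid-range peak (upper limit of the Wilson interval 25.9%). The endothelial, cardiomyocyte and neuronal marker lists had 0 of 6 genes each (upper limit 39.0%). A PRDM6 peak of any class was assigned to 3, 0 and 1 of those genes, and to 3 of the AP-1 family genes. Since 4.76% of all coding genes had a mid-range peak, 0 in lists this small tells little.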

How the data were processed

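FLAG-PRDM6 ChIP-seq of mouse outflow tract SMCs was deposited as a list of matched peaks and its annotation. The authors aligned reads to mm10 with BWA, kept a mapping quality of at least 13, called peaks in each ChIP replicate against its input with MACS2 at a p-value limit of 0.001, matched both replicates with IDR and annotated the result. The deposited score is the scaled IDR, and the deposited −log10 p-values are those of MACS2. Columns of signal and of q-values hold a placeholder, so the −log10 p served as strength in place of the planned signal. The matched value was the smaller of both replicates in all 13977 peaks. Replicates are named by their order in the list, and which sample each one is stays unknown. Other deposited columns, such as class, distance, gene and summit, were used as given. The matched summit lay within 1 bp of the midpoint between the replicate summits in 11286 of the 13977 peaks (80.7%). Most windows are thus centred between the replicate summits.

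Mid-range peaks were selected by class and distance. Motifs were searched in the GRCm38 genome on both strands, wholly within 100 bp of the summit, and in flanks at 1000 bp with the same number of start positions. Heights were read from p-values on a single Poisson series within 0.0002. Wilson, Newcombe, order-statistic and paired log-ratio intervals (95%) were computed in Python 3.11.15 (SciPy 1.17.1, pandas 2.3.3, matplotlib 3.10.9, NumPy 2.4.6), and the scripts were tested on simulated data. No test over peaks was run. Total read depth per sample is not given in the sources used here, and intervals cover counting error only.

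The peaks and gene lists were chosen with earlier results of these data known. A peak that the rule for named genes covers is not reported here. Genes were named by rule: the 12 strongest peaks, peaks at a global IDR up to 0.01, the 8 genes with most peaks, every list gene with a peak, the peaks next to each limit and the 3 longest runs. The run of Mepe and Spp1 and that of Asb7 were named after their values were seen. Of the 27 peaks at that IDR, the rule takes the strongest 20.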

Additional observations from a re-analysis of the deposited data

How the results depend on the processing

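Across 63 recomputed values 44 stayed within the interval of the value reported (counts within 1.5 times) and 19 moved. A change of direction could be called only for the motif ratios, and none of those crossed 1. With a global IDR of at most 0.05 there were 85 peaks with a median −log10 p of 13.7, 62.4% upstream, and summit to flank ratios of 7 for AP-1 (interval 2.09 to 23.5), 3 for TEAD (0.312 to 28.8) and 1.41 for TTTCAT or TTTCCT (0.960 to 2.06), the last 2 with intervals that include 1. TEAD was at 3.53% of these summits. At most 0.01 left 27 peaks with a median of 16.8, 66.7% upstream, and ratios of 4 for AP-1 (0.849 to 18.8, which includes 1) and 1.25 for TTTCAT or TTTCCT (0.625 to 2.4995). No TEAD ratio could be had for those 27, since no flank held the motif. With peaks up to 20 kb apart reduced to the strongest, 5.22% reached a global IDR of 0.05 or less, the median was 6.15 and the AP-1 ratio 4.66. Distances from the reference annotation selected 2560 peaks, 1452 of them shared (65.8% of the 2206 reported and 56.7% of the 2560), with 56.3% upstream. Flanks placed 3 kb away gave an AP-1 ratio of 4.61. With each replicate's own summits and values the median was 6.61 to 6.92, and the TEAD ratio 1.55 to 1.80. A Pearson correlation of log2 values was 0.311. Windows at the middle of the peak and without repeat-masked windows were added after seeing the data and moved no motif ratio out of its interval. Beyond the restrictions to strong or single peaks, whose construction selects for strength, the cause of each move was not tested. No paired analysis was possible because the deposited list holds no Input values to set beside the ChIP sample of the same number. Where a height could be read, in 58.3% and 62.1% of the mid-range peaks, its median of 15 and 14 fragments limits what can be told of single weak peaks.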
